A study of Mus musculus with 6 samples.

Results

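The transcripts of 10 genes of the germ granule and the piRNA pathway, Ddx4, Mael, Stk31, Gtsf1, Dazl, Tdrd1, Piwil2, Asz1, Mov10l1 and Tex14, were measured in mouse embryonic stem cells with and without Dppa2. The genes were chosen by name, and every array probe whose RefSeq transcript bears one of these names was taken. This gave 15 of 41059 probes, for 10 of the 18512 genes that a probe names. Dppa2, which the study also calls ECAT15-2, encodes a SAP-domain protein made in the early embryo and in stem cells, and its neighbour and paralogue Dppa4 is called ECAT15-1. Total RNA was labelled with Cy3 and hybridised to 6 Agilent whole mouse genome arrays, 2 in each of 3 groups. The design asks which transcripts are lost with Dppa2 and which come back when it is returned.

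The wild-type lines were 15-1+/+ and 15-2+/+ and received no vector. The mock lines were 15-1CT/CT and 15-2-/-, where CT is a conditional targeted allele of Dppa4, and had received a CAG promoter vector of the piggyBac type without Dppa2. The Flag-Dppa2 lines were the same knockout lines, 15-1CT/CT and 15-2-/-, with a piggyBac vector in which the CAG promoter drives Flag-tagged Dppa2. All lines came from blastocysts of intercrossed 15-1+/CT, 15-2+/- mice of a mixed 129Sv and C57BL6 background. They were grown on gelatin in medium with 15% serum and LIF, a cytokine that holds stem cells in self-renewal. Lines 1 and 2 came from different mothers, and the mock and Flag-Dppa2 arrays of a number hold the same knockout line. Wild type differed from both knockout groups by the transduction and by the Dppa4 allele as well, and these cannot be told apart from the loss of Dppa2.

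Germ granules are membrane-free bodies of RNA and protein in germ cells, called nuage where they lie beside the nucleus. In the male germline they hold the machinery that makes piRNAs, small RNAs that guide PIWI proteins to transposon transcripts and direct DNA methylation to transposon genes. Many genes of this machinery have promoters rich in CG dinucleotides that are methylated in somatic tissues, and some are transcribed in embryonic stem cells.

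The bases before the gene start are shown for 7 tested members, to let those with an E-box, which the choice by name did not use, be set beside those without. Each sequence is the 250 bases before the start in RefSeq on build GRCm38.p6, read 5′ to 3′ on the gene's strand. Capitals mark 3 motifs searched on both strands. They are the E-box CACGTG, which reads alike on both strands. They are also the E2F-like motif GCGGGAA or its reverse complement. The last is the TATA box, TATAAA. The Ddx4 sequence lies at chr13:112652311-112652560 (minus strand), that of Mael at chr1:166238745-166238994 (minus strand) and that of Stk31 at chr6:49395289-49395538 (plus strand). The Tdrd1 sequence lies at chr19:56825959-56826208 (plus strand), that of Gtsf1 at chr15:103430428-103430677 (minus strand), that of Dazl at chr17:50293621-50293870 (minus strand) and that of Tex14 at chr11:87404815-87405064 (plus strand).
Ddx4: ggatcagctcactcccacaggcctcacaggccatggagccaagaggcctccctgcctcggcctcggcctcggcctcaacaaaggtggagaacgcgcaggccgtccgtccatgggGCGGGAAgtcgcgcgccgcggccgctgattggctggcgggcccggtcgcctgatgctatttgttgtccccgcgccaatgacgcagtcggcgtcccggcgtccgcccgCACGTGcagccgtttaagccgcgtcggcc
Mael: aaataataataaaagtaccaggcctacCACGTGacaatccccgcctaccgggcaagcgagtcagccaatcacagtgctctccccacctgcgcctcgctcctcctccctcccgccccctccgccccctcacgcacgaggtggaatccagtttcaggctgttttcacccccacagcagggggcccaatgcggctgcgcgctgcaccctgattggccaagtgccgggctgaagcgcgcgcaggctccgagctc
Stk31: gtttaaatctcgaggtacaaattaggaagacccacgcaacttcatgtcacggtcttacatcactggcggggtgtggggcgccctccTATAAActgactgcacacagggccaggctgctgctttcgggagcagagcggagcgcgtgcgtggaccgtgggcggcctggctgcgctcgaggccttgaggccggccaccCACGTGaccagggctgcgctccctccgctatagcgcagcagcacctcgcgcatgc
Tdrd1: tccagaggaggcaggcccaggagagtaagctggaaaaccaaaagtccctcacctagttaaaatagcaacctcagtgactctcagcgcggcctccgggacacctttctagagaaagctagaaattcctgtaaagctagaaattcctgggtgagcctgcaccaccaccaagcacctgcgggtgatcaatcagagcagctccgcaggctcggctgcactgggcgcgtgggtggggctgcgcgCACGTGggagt
Gtsf1: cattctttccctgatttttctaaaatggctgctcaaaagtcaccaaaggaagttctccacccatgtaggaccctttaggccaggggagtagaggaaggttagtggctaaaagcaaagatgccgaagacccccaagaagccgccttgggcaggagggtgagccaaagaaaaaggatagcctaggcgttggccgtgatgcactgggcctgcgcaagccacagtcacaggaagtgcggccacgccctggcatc
Dazl: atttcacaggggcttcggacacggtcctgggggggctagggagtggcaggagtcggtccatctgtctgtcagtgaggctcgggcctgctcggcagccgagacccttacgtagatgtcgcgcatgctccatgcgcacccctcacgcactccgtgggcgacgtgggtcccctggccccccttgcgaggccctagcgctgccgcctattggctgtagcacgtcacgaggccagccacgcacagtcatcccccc
Tex14: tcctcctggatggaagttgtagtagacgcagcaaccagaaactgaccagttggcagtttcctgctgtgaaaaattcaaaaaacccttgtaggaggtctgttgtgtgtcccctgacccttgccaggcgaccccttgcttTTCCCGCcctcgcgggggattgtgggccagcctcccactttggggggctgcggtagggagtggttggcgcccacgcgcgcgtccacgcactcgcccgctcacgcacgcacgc

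CACGTG was present in a window of 5 of the 9 members that have windows in the RefSeq table, Ddx4, Mael, Stk31, Tdrd1 and Mov10l1. It lay at position -29 from the start in Ddx4, -223 in Mael, -55 in Stk31, -11 in Tdrd1 and -246 in Mov10l1. Of all 32851 windows of the same 300 bases (250 before and 50 after the start), 7.15% held it, and of the 8701 windows with at least 20 CG dinucleotides 11.6% held it. Shares here and below are per window, whereas a member was counted if any of its windows held the motif. Counted in that way, 1239 of the tested genes with a window had CACGTG and 9369 did not. GCGGGAA was found in Ddx4 at -136 and Tex14 at -112, against 4.6% of all windows and 11.4% of those rich in CG. TATAAA was found in Stk31 at -164 and in a later Tdrd1 window, against 13.6% of all windows and 3.67% of those rich in CG. The 3 motifs do not overlap one another in these sequences, and a match is only a match of letters.

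Each member's earliest-listed window held more CG dinucleotides than the median window. Asz1 and Gtsf1 lay under the 20 used above for windows rich in CG. The highest count was 38 in Ddx4, followed by 29 in Stk31, 28 in Dazl and 24 in Mael. Tdrd1, Mov10l1 and Tex14 had 20 each, Asz1 had 17 and Gtsf1 had 13. The later windows of Tdrd1 held 25 and 3, and that of Stk31 held 28. The median over all windows was 7, with quartiles of 3 and 20.

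**Figure D1:**
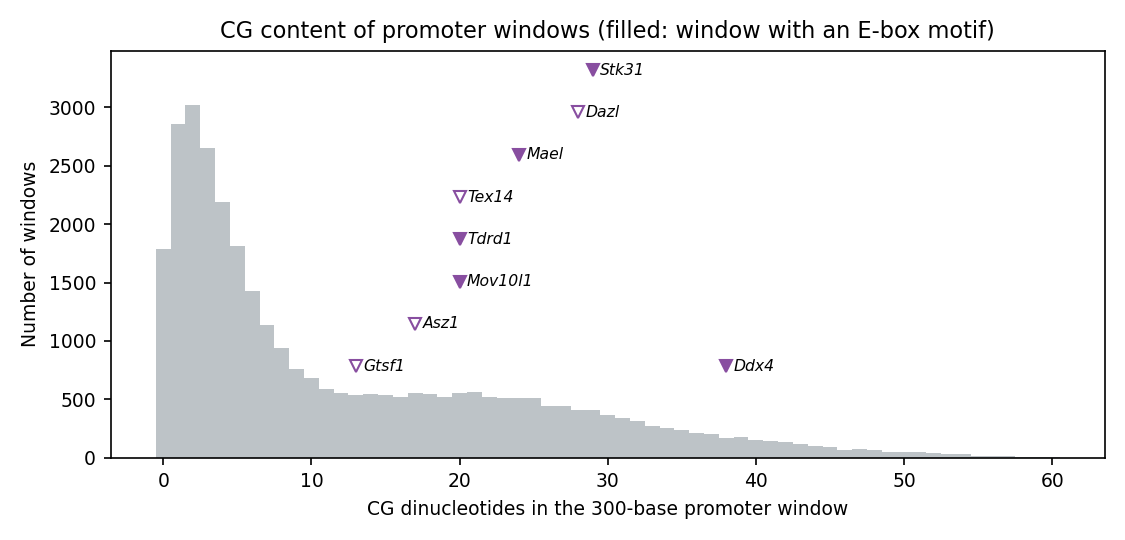
Number of CG dinucleotides (horizontal axis) in the 300 bases around the start for all 32851 RefSeq windows (grey bars, number of windows on the vertical axis), with 1 triangle per member at its earliest-listed window, filled where that window holds CACGTG; the height of a triangle has no meaning. The members lie between 13 (Gtsf1) and 38 (Ddx4), to the right of the median of 7.

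Between 55.8% and 60.3% of the probes on an array were well above background by the scanner software's test, no spot was saturated, and an array's 75th percentile lay at 719 to 856 intensity units. Levels below are log2 signals minus the log2 of that percentile. Between the wild-type arrays the signals differed by less than the scanner's own error. Of 14986 bright spots, 0.487% lay beyond the 95% limit of that error, where 5% are due, against 22.3% for the mock pair and 24.7% for the Flag-Dppa2 pair. They were therefore counted as 1 sample in n, although the limma test used all 6 arrays, and with the wild-type arrays averaged limma called 0 features in each of the 3 comparisons, so every call below, markers included, is lost in that setting. The features with an unadjusted p under 0.05 then numbered 2280 for mock against wild type, 1470 for Flag-Dppa2 against mock and 1564 for Flag-Dppa2 against wild type. Arrays of wild type and mock lay on 1 slide and those of Flag-Dppa2 on another, so that slide and the return of Dppa2 cannot be told apart. The number of arrays limits the precision.

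The targeted gene was read first. Dppa2 was at 2.13 and 2.07 in wild type, -2.09 and -2.0 in mock, all above background, and -0.05 and 0.35 with Flag-Dppa2. Mock was 17.7-fold below wild type (a log2 difference of -4.15, SE 0.16, adjusted p = 0.00565), and 4.59-fold higher with Flag-Dppa2 than in mock (2.20, adjusted p = 0.0268). The Flag-Dppa2 level was 3.87-fold below wild type (-1.95, adjusted p = 0.0409). Whether the probe lies in the part that was deleted or in the returned coding sequence is not given in the sources used here. Dppa4 was at 2.96 and 2.99 in wild type, 3.47 and 3.67 in mock, and 3.6 and 3.78 with Flag-Dppa2 (mock minus wild type 0.59, adjusted p = 0.0699).

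In mock knockout cells the members with a measurable level in wild type were low. Of the 8 members tested, 8 were called lower in mock than in wild type by limma, at a p under 0.05 after Benjamini-Hochberg adjustment over the 18768 features tested, and 0 higher. By the same rule 3.65% of all features were called lower. Asz1 and Mov10l1 were not tested, because their probes were not well above background on at least 2 arrays. Ddx4 and Mael, the RNA helicase of nuage and a nuage protein of piRNA-guided silencing, fell to below background on both mock arrays, as did Stk31 and Dazl. The wild-type levels of Ddx4 and Mael were at least 101-fold and at least 41.8-fold above mock. With the wild-type arrays averaged to 1 sample, 0 members were called in mock against wild type, with adjusted p from 0.147 to 0.327. All 8 then had an unadjusted p under 0.05, as did 2280 of the 18768 features. Leaving out either wild-type array left 0 members called, and leaving out either Flag-Dppa2 array left 7. Without the first mock array Ddx4, Gtsf1 and Stk31 were called, and without the second Gtsf1, Tdrd1 and Stk31, 3 members each time.

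The median difference of the 8 tested members was -4.27, or -2.76 with each level below background raised to the array's detection floor, against 0.05 for all features. The 2 wild-type arrays lay above both mock arrays for 8 of the 8, and the same held for 28.6% of all features. Ddx4, Mael, Stk31 and Dazl entered the test only through the groups in which they were high, so these counts and medians describe the genes tested and support nothing about the 10. In RNA from bulk cultures, fewer cells that express a gene and less RNA per cell cannot be told apart.

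**Figure D2:**
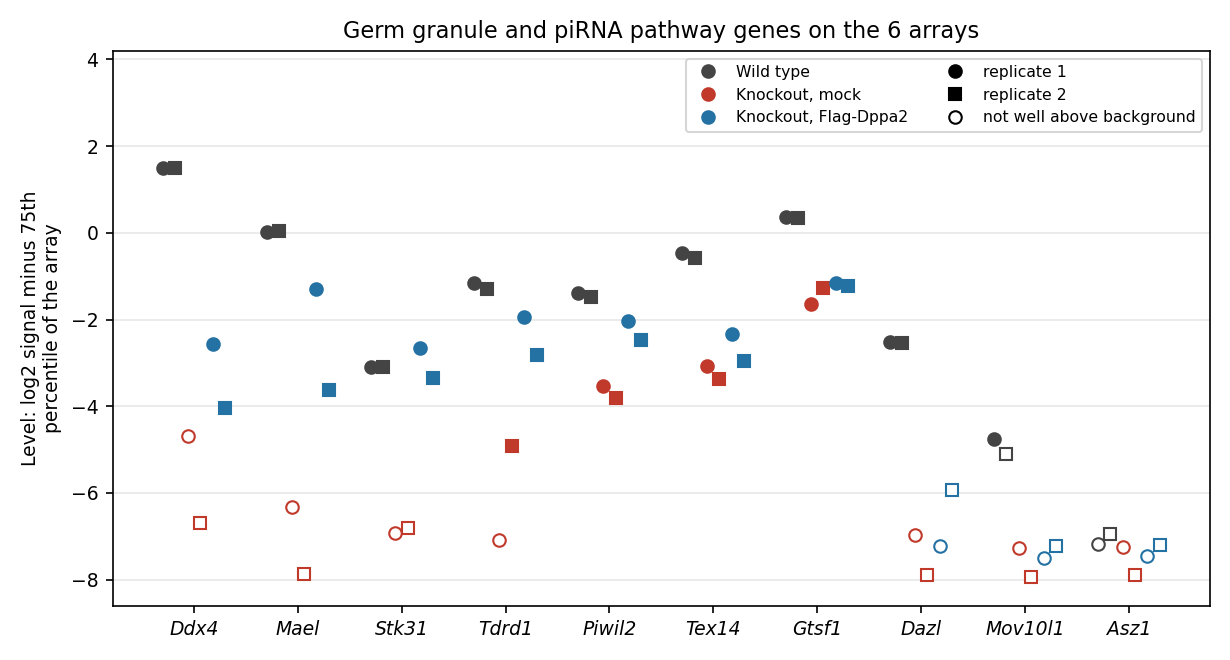
Level (vertical axis, log2 signal minus the array's 75th percentile) of the 10 members on the 6 arrays, 1 point per array, coloured by group, with circles for replicate 1, squares for replicate 2 and open points where the probe was not well above background. The wild-type points of a gene nearly coincide and lie above both mock points for the 8 tested members, and the Flag-Dppa2 points lie above both mock points for all of those but Dazl.

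Ddx4, the mouse vasa helicase, is a classical marker of germ cells. Its probe read 1.49 and 1.49 in wild type, -4.68 and -6.69 in mock and -2.56 and -4.05 with Flag-Dppa2, or in intensity units 2294 and 2407, 31.4 and 7.23, and 134 and 43.5. Both mock arrays were below background and no group overlapped another. The fall from wild type to mock was -7.17 (SE 0.84, adjusted p = 0.0272).

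For Ddx4 the Flag-Dppa2 arrays were at least 3.66-fold above mock, a difference of 2.38 (SE 0.84) that was not called (adjusted p = 0.356). They were 27.7-fold below wild type, also not called (adjusted p = 0.0898). Each of the 2 knockout lines had more Ddx4 signal with Flag-Dppa2 than with mock, by at least 2.12 in line 1 and at least 1.62 in line 2 on the log2 scale. For these bounds, a dim array's value that lay under the weakest signal detected well above background on that array was raised to it before the group means were taken.

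Piwil2, a cytoplasmic PIWI protein also called Mili, read -1.40 and -1.48 in wild type, -3.54 and -3.81 in mock and -2.04 and -2.48 with Flag-Dppa2. All 6 arrays were above background and the groups did not overlap. It was 4.71-fold lower in mock than in wild type (-2.24, SE 0.20, adjusted p = 0.0159). With Flag-Dppa2 it was 2.66-fold above mock (1.41, adjusted p = 0.0829) and 1.77-fold below wild type (-0.82, adjusted p = 0.125), neither of them called. The gain within a line was 1.5 in line 1 and 1.32 in line 2.

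Mov10l1, the helicase that hands piRNA precursors to the machinery, was above background on 1 array, the first wild-type array, at -4.76. The second wild-type array read -5.11, below background, and so did all 4 knockout arrays. Its other probe was below background on all 6 arrays. With no filter on dim probes Mov10l1 was called lower in mock, from signals that were below background on 5 of the 6 arrays.

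Tdrd1 is a Tudor-domain scaffold that binds methylated arginines of PIWI proteins. It read -1.17 and -1.29 in wild type, -7.09 and -4.91 in mock and -1.95 and -2.82 with Flag-Dppa2. The first mock array was below background and the second above it, so the distance between the mock arrays was not measured. Wild type was at least 13.5-fold above mock with the first mock array at its floor (fitted difference -4.78, SE 0.80, adjusted p = 0.0483), a call close to the threshold. It was not called with the replicate number as a block (adjusted p = 0.0780), under quantile normalization (0.0553), in the authors' log2 values (0.0553) or with no filter on dim probes (0.0929). Nor was it called when only the wild-type and mock arrays, which share a slide, were fitted (0.0780), or without the first mock array (0.0622).

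With Flag-Dppa2, Tdrd1 was at least 6.03-fold above mock (fitted difference 3.62, adjusted p = 0.187) and 2.23-fold below wild type (-1.16, adjusted p = 0.461), and neither difference was called. The gain within a line was at least 3.09 in line 1, from a mock array below background, and 2.09 in line 2. A further Tdrd1 probe was below background on all arrays.

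Stk31, a Tudor-domain protein with a kinase fold found in nuage, had its lowest values in mock as well. It read -3.10 and -3.11 in wild type, -6.91 and -6.81 in mock, both below background, and -2.67 and -3.35 with Flag-Dppa2. Wild type and Flag-Dppa2 overlapped, and mock lay apart from both. Stk31 fell from wild type to mock by -3.76 (SE 0.25, adjusted p = 0.00971), and wild type was at least 4.75-fold above mock.

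Stk31 was the 1 member called between Flag-Dppa2 and mock, higher by 3.85 (SE 0.25, adjusted p = 0.0220) and by at least 5.07-fold. Its Flag-Dppa2 level was 0.09 above wild type (adjusted p = 0.853), with the SE of 0.25 at more than that difference. Signals near 100 intensity units carried this result, 95.2 and 99.5 in wild type and 124 and 70.3 with Flag-Dppa2. The call was lost under normexp background correction, where the difference was 1.10 (adjusted p = 0.0698), with the replicate number as a block (adjusted p = 0.0610), with wild type averaged or left out of the fit (adjusted p = 0.156), and when any 1 array was left out (adjusted p from 0.0533 to 0.156).

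Asz1, a mitochondrial membrane protein of intermitochondrial cement, was below background on all 6 arrays. Its level in these cells was thus not measured in any group.

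Mael read 0.03 and 0.04 in wild type, -6.33 and -7.86 in mock and -1.30 and -3.63 with Flag-Dppa2. Both mock arrays were below background and no group overlapped another. The fall from wild type to mock was -7.13 (SE 0.95, adjusted p = 0.0341). Flag-Dppa2 was at least 7.40-fold above mock (4.63, adjusted p = 0.166) and 5.65-fold below wild type (-2.5, adjusted p = 0.236), neither of them called.

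With Flag-Dppa2 the Mael probe gave 321 intensity units in line 1 and 57.9 in line 2, against 834 and 878 in wild type. The line 1 array was thus the nearer to wild type. Both mock arrays being below background, the gain over mock was at least 3.74 in line 1 and at least 2.03 in line 2. The call in mock against wild type was lost with no filter on dim probes (adjusted p = 0.0621).

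Gtsf1, a zinc finger protein that binds PIWI proteins and is needed for transposon silencing, kept a measurable level in every array. Its probe A_51_P485405 read 0.37 and 0.35 in wild type, -1.64 and -1.26 in mock and -1.15 and -1.22 with Flag-Dppa2. It was 3.52-fold lower in mock than in wild type (-1.81, SE 0.15, adjusted p = 0.0154). The difference between Flag-Dppa2 and mock was 0.27 (adjusted p = 0.553), and Flag-Dppa2 was 2.92-fold below wild type (-1.54, adjusted p = 0.0517).

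The other Gtsf1 probe, A_51_P485400, gave the same order of wild type and knockout with a smaller difference. It read -1.27 and -1.35 in wild type, -2.36 and -2.02 in mock and -1.97 and -2.13 with Flag-Dppa2. In a fit with every probe its fall from wild type to mock was 0.88 on the log2 scale, which was not called (adjusted p = 0.0549). Mock and Flag-Dppa2 overlapped for this probe, and in line 2 Flag-Dppa2 was below mock, at a difference of -0.11.

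Dazl, an RNA-binding protein that promotes translation in germ cells, was above background in wild type alone. Probe A_52_P271166 read -2.52 and -2.55 in wild type, -6.97 and -7.89 in mock and -7.23 and -5.94 with Flag-Dppa2, all 4 knockout arrays being below background. Wild type was at least 7.06-fold above mock (-4.89, SE 0.54, adjusted p = 0.0242) and at least 5.93-fold above Flag-Dppa2 (-4.05, adjusted p = 0.0667, not called). The call against mock was lost with the replicate number as a block (adjusted p = 0.0556). The other Dazl probe was above background on 1 wild-type array only.

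Tex14, which keeps the bridges between dividing germ cells open, read -0.47 and -0.58 in wild type, -3.07 and -3.38 in mock and -2.33 and -2.95 with Flag-Dppa2. It was 6.48-fold lower in mock than in wild type (-2.70, SE 0.25, adjusted p = 0.0178). Flag-Dppa2 was 1.5-fold above mock (0.58, adjusted p = 0.431) and 4.33-fold below wild type (-2.11, adjusted p = 0.0595), neither of them called. A further Tex14 probe was below background on all arrays.

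The size of these differences depended on the background correction. With normexp correction and an offset of 50, which compresses dim signals, the differences between mock and wild type ran from -4.46 (Ddx4) to -0.93 (Stk31). All 8 tested members were still called lower in mock, and 1671 of all 18768 features were called in either direction. Between Flag-Dppa2 and mock the members' median fell to 0.78 with this correction, and 0 members were called by limma. An unadjusted p under 0.05 was then found for 5 members, and for 2564 of all 18768 features.

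**Figure D3:**
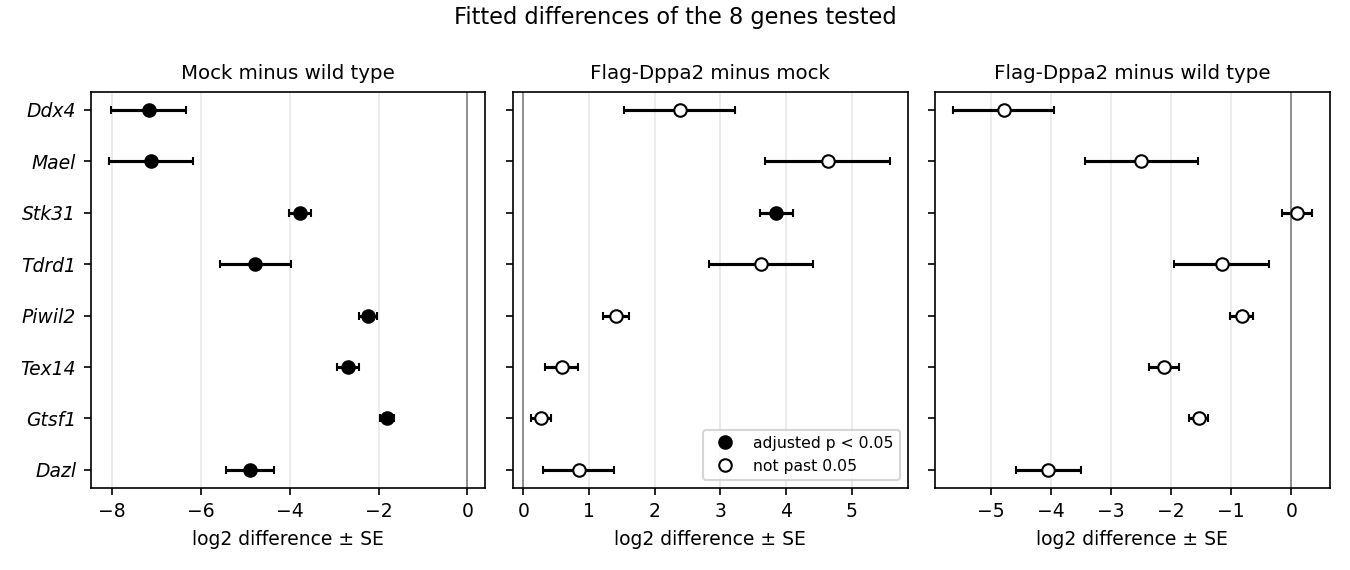
Log2 difference (horizontal axis, bars are the SE of the limma fit) of the 8 tested members in the 3 comparisons, 1 panel each; filled points have an adjusted p under 0.05. All 8 points of mock minus wild type are filled and lie between -7.17 and -1.81, Stk31 alone is filled in Flag-Dppa2 minus mock, and none is filled in Flag-Dppa2 minus wild type.

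Between Flag-Dppa2 and mock 1 member passed the test. Stk31 was called higher than in mock and 0 members were called lower, against 0.703% of all features called higher and 0.0373% called lower. The other 7 had fitted differences of 0.27 (Gtsf1) to 4.63 (Mael). An unadjusted p under 0.05 was found for 5 of the 8, and for 2516 of all 18768 features. The median was 1.90, against -0.01 for all features, and 1.87 with levels below background at the floor and without Dazl, which was below background in both groups. With wild-type arrays averaged, 0 members were called by limma, and 4 members had an unadjusted p under 0.05, as did 1470 of all features. Ddx4, Mael and Stk31 were below background on both mock arrays and entered the test only through the other groups. The counts and medians of this comparison therefore describe the genes tested and support nothing about the members as a whole.

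Both Flag-Dppa2 arrays lay above both mock arrays for 7 of the 8 tested members, all but Dazl, and for 18.1% of all features. Flag-Dppa2 was above mock within each of the 2 lines for the same 7, and for 34.7% of all features. Of these 7, Ddx4, Mael and Stk31 were below background on both mock arrays, and Tdrd1 on 1. The gains were 0.74 and 0.43 for Tex14 and 0.49 and 0.05 for Gtsf1 in lines 1 and 2, less than 1 on the log2 scale. Gtsf1 is counted here by its brighter probe. For its other probe, above background on all arrays, mock and Flag-Dppa2 overlapped, and Flag-Dppa2 was below mock in line 2.

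The lines differed. With Flag-Dppa2, line 1 was above line 2 for 7 of the 8 tested members, Dazl being the exception and below background in both, and for 46.8% of all features. In mock, line 1 was above line 2 for 5 of the 8, and for 48.6% of all features. Ddx4, Mael, Stk31 and Dazl were below background on both mock arrays, so their order in mock was not measured. Dppa2 itself was at -0.05 in line 1 and 0.35 in line 2 with Flag-Dppa2, the opposite order to the 7 members above. A line is 1 array in each group, so the difference between lines was not tested.

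**Figure D4:**
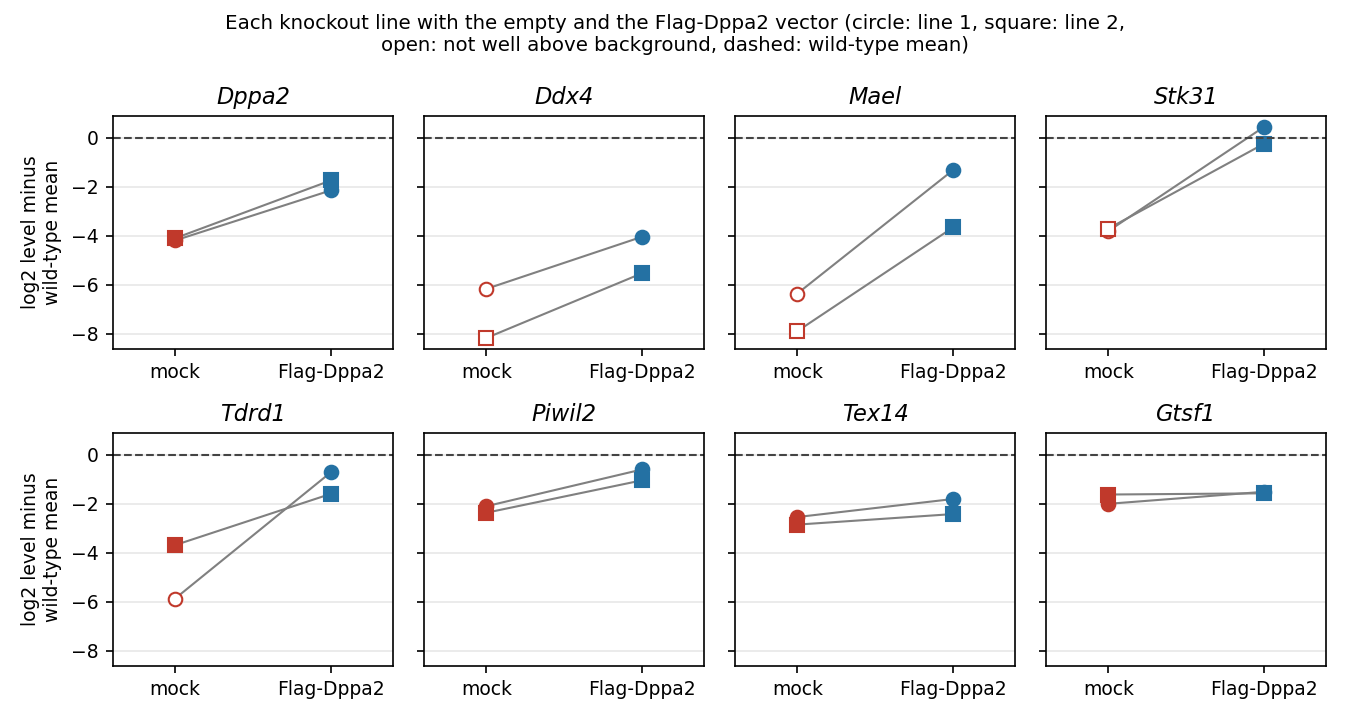
Log2 level minus the wild-type mean (vertical axis) of Dppa2 and 7 members in each knockout line with the mock and the Flag-Dppa2 vector, circles for line 1 and squares for line 2, joined within a line; open points were not well above background and the dashed line is wild type. Every joining line rises, by as little as 0.05 for Gtsf1 in line 2. The brighter Gtsf1 probe is shown, and its other probe fell in line 2. With Flag-Dppa2, line 1 is the higher one for the 7 members and the lower one for Dppa2.

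Against wild type, 0 of the 8 tested members were called with Flag-Dppa2 in the limma fit, where 0.389% of all features were called lower and 0.144% higher. The unadjusted p was under 0.05 for 5 members, Ddx4, Gtsf1, Tex14, Dazl and Piwil2, all with lower values. It was under 0.05 for 4045 of all features, in either direction. With the wild-type arrays averaged it was under 0.05 for 4 members, and the number of all features in that setting is given above. Both Flag-Dppa2 arrays lay below both wild-type arrays for 7 of the 8, all but Stk31, and for 27.1% of all features. The median difference was -1.83, against 0.03 for all features. Gtsf1, Tex14 and Dazl were called lower than wild type under quantile normalization and in the authors' own log2 values, and those with Ddx4 under normexp correction. Each of these settings called more features in all than the main fit, with the numbers given below under the processing alternatives. The comparisons share arrays, so their differences are not independent of one another.

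A list of 40 other genes of the germ granule and the piRNA pathway was drawn up from general knowledge. Of these 34 had a probe and 27 were tested. In mock against wild type 4 were called lower, Fkbp6, Gpat2, Boll and Cpeb1, and 0 higher, against 3.65% and 2.47% of all features. The median difference of the 27 was -0.31, with 6 lower and 3 higher at an unadjusted p under 0.05 in the limma fit. Of all 18768 features, 5124 had such a p in either direction. With the wild-type arrays averaged 0 were called and 4 had an unadjusted p under 0.05, as did 2280 of all features.

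Fkbp6, a co-chaperone of PIWI loading, read -2.22 and -2.26 in wild type, -7.12 and -7.82 in mock and -6.36 and -5.11 with Flag-Dppa2, all knockout arrays below background. Fkbp6 thus entered the test only through wild type. Wild type was at least 8.64-fold above mock (-5.22, SE 0.49, adjusted p = 0.0180). Gpat2, a mitochondrial membrane protein that binds Piwil2, read 0.10 and 0.06 in wild type, -3.72 and -3.94 in mock and -1.90 and -2.87 with Flag-Dppa2. It was 15.1-fold lower in mock (-3.91, SE 0.35, adjusted p = 0.0163), and its Flag-Dppa2 arrays lay between the other groups.

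Boll, a relative of Dazl, was 3.07-fold lower in mock (-1.62, SE 0.18, adjusted p = 0.0249). It read -3.03 and -2.93 in wild type, -4.53 and -4.67 in mock and -3.02 and -3.47 with Flag-Dppa2. Cpeb1, which controls polyadenylation of stored mRNAs, was 2.08-fold lower (-1.05, SE 0.17, adjusted p = 0.0465), and was not called with the replicate number as a block (adjusted p = 0.0748). Its arrays read -2.20 and -2.13 in wild type, -3.01 and -3.43 in mock and -2.99 and -2.88 with Flag-Dppa2.

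Other genes of the list did not pass the test. Dnmt3l, the cofactor of de novo DNA methylation, read 5.89 and 5.87 in wild type and 6.76 and 6.47 in mock (0.73, adjusted p = 0.0786). Tex19.1, which restrains transposons in germ cells and placenta, read 4.11 and 4.01 in wild type, 1.67 and 3.50 in mock and 3.39 and 3.99 with Flag-Dppa2 (mock minus wild type -1.48, adjusted p = 0.241), with mock line 1 the lowest. Pld6, a nuclease or lipase of the mitochondrial surface, differed by -0.29 (adjusted p = 0.216) and the arginine methyltransferase Prmt5 by 0.16 (adjusted p = 0.369). The helicase gene Tdrd9 was above background on 2 arrays of different groups (adjusted p = 0.746) and the PIWI gene Piwil1 on none, while Piwil4 and Tdrkh had no probe.

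Between Flag-Dppa2 and mock 0 of the 27 genes were called by limma, with 4 higher and 0 lower at an unadjusted p under 0.05 and a median of 0.16. Of all 18768 features, 2516 had such a p in either direction. The difference was 1.45 for Gpat2 (adjusted p = 0.213) and 1.36 for Boll (adjusted p = 0.0798). Between Flag-Dppa2 and wild type 0 were called, with 3 higher and 3 lower at an unadjusted p under 0.05 and a median of -0.20. Here 4045 of all features had such a p in either direction. Line 1 was above line 2 with Flag-Dppa2 for 13 of the 27, and for 46.8% of all features.

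**Figure D5:**
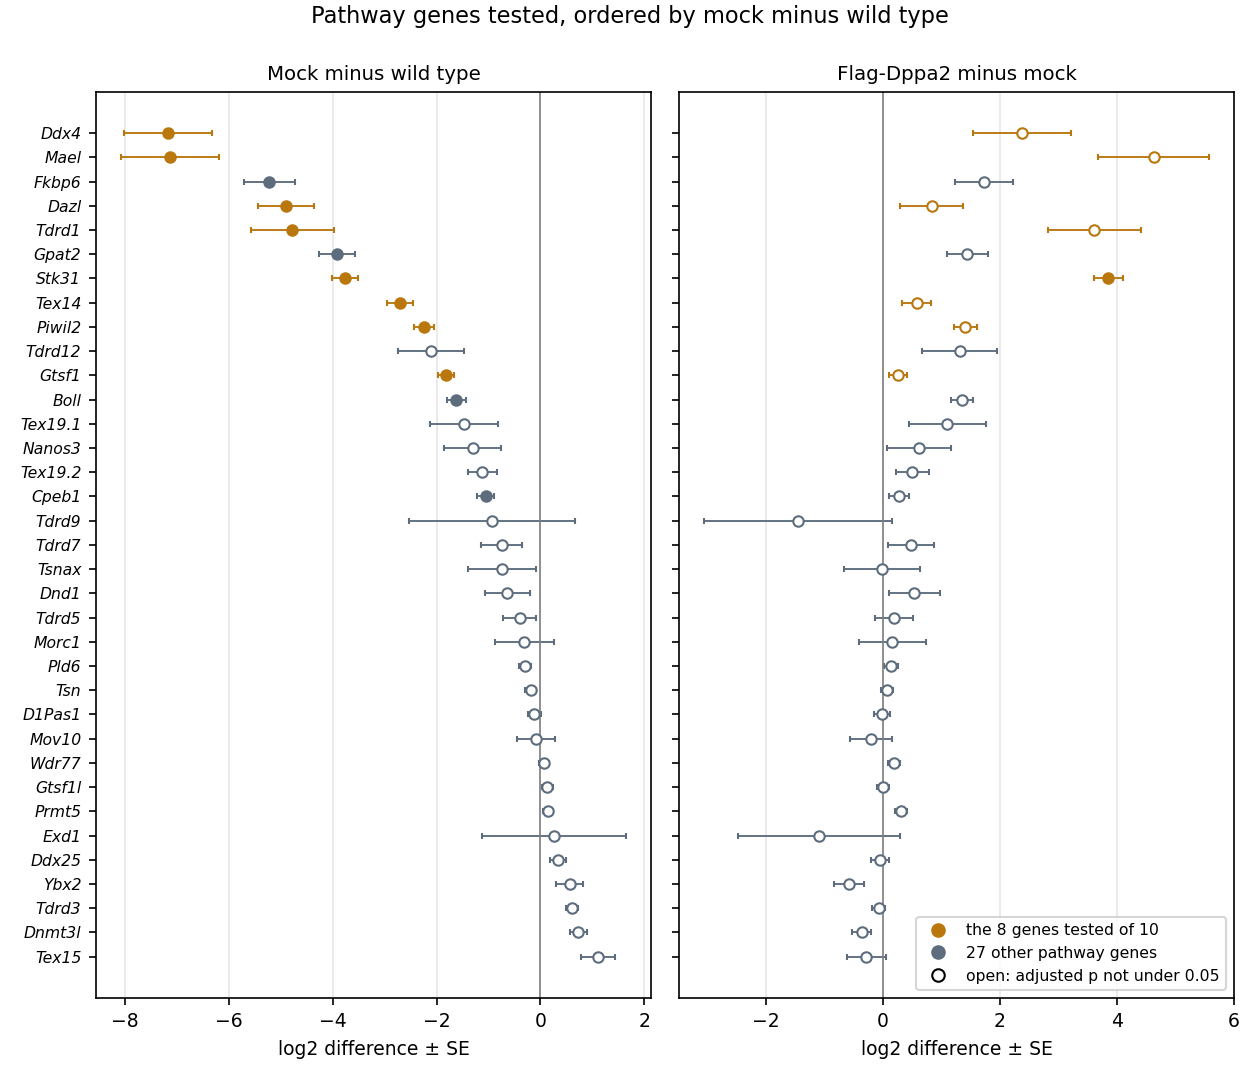
Log2 difference (horizontal axis, bars are the SE of the limma fit) of mock minus wild type (left) and Flag-Dppa2 minus mock (right) for the 8 tested members (ochre) and the 27 other tested pathway genes (grey), ordered by the left panel; filled points have an adjusted p under 0.05. The members lie between -7.17 and -1.81 on the left, where the other genes have a median of -0.31, and Stk31 is the 1 filled point on the right.

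Markers of the cells were read beside these genes. All 9 pluripotency genes with a probe, Pou5f1 and Sox2 among them, were above background on all 6 arrays. Their summed level, in units of the 75th percentile, was 506 to 519 in wild type, 620 to 707 in mock and 611 to 709 with Flag-Dppa2, and Utf1 was called higher in mock. Dppa5a, at 8.58 to 8.95 over the arrays, made up most of this sum. Zfp42 was at 3.57 in line 1 and 6.39 in line 2 in mock, and at 3.56 and 6.35 with Flag-Dppa2. Pou5f1 with Flag-Dppa2 was 1.48 above mock (limma adjusted p = 0.105) and 2.26 above wild type (adjusted p = 0.052), neither of them called. The list medians were -0.13 and 0.12. The 7 markers of primordial germ cells with a probe were likewise above background on all arrays, and Nanos3 and Dnd1 of that list are also in the pathway list. Their summed level was 72.0 to 75.8 in wild type, 36.2 to 37.3 in mock and 40.7 to 61.1 with Flag-Dppa2, and 0 were called by limma in any comparison. With Flag-Dppa2 the summed level was 40.7 in line 1 and 61.1 in line 2, each from 1 array. The part of this list in the members' differences was not tested.

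Of 10 markers of spermatogonia and meiotic cells 7 had a probe and 4 were tested. Gfra1, Spo11 and Nobox were below background on all arrays. Sycp1, a synaptonemal complex gene that entered the test only through wild type, was called lower in mock. The summed level of this list was 2.92 to 2.97 in wild type, 1.48 to 1.74 in mock and 2.01 to 3.36 with Flag-Dppa2. The 5 tested markers of cells that resemble the early cleavage embryo were called lower in mock, as were 3.65% of all features. None was above background on any of the 4 knockout arrays. They entered the test only through wild type, so the filter set the direction of their calls. Their summed level in wild type was 1.45 to 1.60, and 0 were called between Flag-Dppa2 and mock. The part of either list in the members' values was not tested.

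All 12 markers of fibroblasts and feeder cells had a probe and 9 were tested. Loxl1, Mmp2 and Fbn1, genes of the extracellular matrix, were called lower in mock than in wild type, as were 3.65% of all features. Like Stk31, these 3 were called higher with Flag-Dppa2 than in mock, as were 0.703% of all features. The other tested markers were called in neither comparison. Between Flag-Dppa2 and mock those differed by 0.24 (Postn) to 0.90 (Col3a1), except Col1a1 (-0.10) and Thy1 (-0.26). Loxl1 and Fbn1 were below background on both mock arrays and entered the test through the other groups. Lum, Col6a1 and Col6a2 were below background on all arrays. The summed level of the list was 5.81 to 6.16 in wild type, 1.79 to 2.23 in mock and 2.47 to 2.53 with Flag-Dppa2, and its part in the members' values was not tested.

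Of the Y-linked genes 6 had a probe and 3 were tested. These 3 entered the test only through wild type, so the filter set the direction of their calls. All 3 were called lower in mock and with Flag-Dppa2 than in wild type, and none of the 6 was above background on any of the 4 knockout arrays, at a summed level of 4.77 to 4.93 in wild type. Sex and genotype therefore cannot be told apart in the members' differences from wild type. The comparison of Flag-Dppa2 with mock is between arrays of the same lines.

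The genes outside both lists whose 6 arrays lay nearest to the members' median pattern were Fgf5, D630039A03Rik, Cdcp1, Loxl1 and Dppa2. Each gene was centred on its wild-type mean, and likeness was the mean absolute distance over the 6 arrays to the median of the 8 members above background on both wild-type arrays. The distance was 0.18 for Fgf5, a growth factor of the primed epiblast, 0.19 for D630039A03Rik, 0.24 for Cdcp1, 0.24 for Loxl1 and 0.25 for Dppa2. The members' median pattern was -4.12 and -3.70 on the mock arrays and -1.42 and -2.01 on the Flag-Dppa2 arrays. Its mock values rest in part on unmeasured levels, Ddx4, Mael, Stk31 and Dazl being below background on both mock arrays and Tdrd1 on 1. Cdcp1 was above background on only 2 arrays, and Loxl1 on neither mock array, so their distances rest in part on unmeasured levels too. Fgf5 read -0.28 and -0.30 in wild type, -3.84 and -4.02 in mock and -1.47 and -2.52 with Flag-Dppa2.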

How the data were processed

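The 6 arrays (Agilent G4122F, 1 colour) were read per the file headers as intensity values made with Agilent Feature Extraction 10.7.3.1, protocol GE1_107_Sep09, which subtracts background and replaces very dim signals with surrogates. The log2 values of the authors' deposited matrix, made with GeneSpring GX 11 per the submitters' processing notes, served as an alternative; their column medians were all 5.84, they are not centred, and they correlate above 0.999 with the scanner's log2 signals. The headers name build mm9; RefSeq GRCm38 tables were used for names and promoter windows only.

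Control spots (1639 of 45018) and outlier spots were left out, the other spots of each probe averaged, and 115 of 41174 probes dropped. RefSeq accessions gave 27135 probes a symbol and left 13924 without. The log2 signal minus each array's 75th percentile was tested for probes well above background on at least 2 arrays, the brightest per symbol, 18768 features in all (13294 genes and 5474 unnamed probes), in 1 fit of 3 groups with limma 3.58.1 in R 4.3.3 (two-sided, Benjamini-Hochberg over all features). The fit had 3 residual and 1.41 prior degrees of freedom, and was tested on simulated data. No scanner mean signal was used here: the normexp alternative took the spot medians. P-values measure the spread between these arrays.

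Replicate numbers mark the mother, and the knockout line between mock and Flag-Dppa2, per the labels. Deviations of same-numbered arrays correlated at -0.04 (wild type and mock), 0.01 (wild type and Flag-Dppa2) and 0.59 (mock and Flag-Dppa2). Named genes are all members, Dppa2, Dppa4, called genes of the pathway list, 8 further pathway genes taken whatever their values, and the 5 nearest patterns. The members and lists were chosen with earlier results of these data known.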

Additional observations from a re-analysis of the deposited data

How the results depend on the processing

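All tested members kept their direction under every alternative run except Stk31 between Flag-Dppa2 and wild type, which was 0.09 with all arrays and -0.25 to 0.44 with 1 left out (lowest without the first Flag-Dppa2 array), and not called. For mock against wild type, 1149 features were called in all, against 384 with no filter on dim probes, 492 with the replicate block, 0 with wild type averaged, 1761 with an intensity trend and 0 to 888 with 1 array left out. Members called lower numbered 3 with probes above background on all arrays (only 3 tested), 0 with wild type averaged and 0 to 7 with 1 array left out. They numbered 0 without either wild-type array and 3 without either mock array. Other pathway genes called lower numbered 2 with no filter, 0 with wild type averaged and 0 to 3 with 1 array left out, and those called higher 1 (Tdrd3) under the all-array filter, quantile, normexp and the authors' values and 2 (also Dnmt3l) with the trend. For Flag-Dppa2 against mock, 139 features became 28 under the all-array filter, 48 with no filter, 53 under normexp, 4 with the replicate block, 0 with wild type averaged or only these groups fitted, 0 with only the knockout arrays and the replicate block (added after seeing the data), and 0 to 112 with 1 array left out. Members called higher numbered 0 under each of these but no filter. For Flag-Dppa2 against wild type, 100 features became 23 under the all-array filter, 6 with no filter, 222 under quantile, 390 under normexp, 228 in the authors' values, 0 with the replicate block, 0 with wild type averaged, 301 with the trend, 5 with only these groups fitted and 0 to 5 with 1 array left out. Members called lower numbered 3 under quantile and in the authors' values, 4 under normexp and 2 with the trend, and other pathway genes 2 under normexp. The replicate block ended the calls of Dazl, Tdrd1 and Cpeb1 in mock against wild type and of Stk31 in Flag-Dppa2 against mock, and no other call of a member or named pathway gene. The causes were not tested. Signals near background limit the knockout levels of Ddx4, Mael, Stk31, Dazl and Tdrd1.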

Other observations

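Tdrd12, a Tudor-domain helicase of the pathway list that the naming rule did not take, was chosen here after its values were seen. It read 4.09 and 4.04 in wild type, 1.12 and 2.80 in mock and 2.86 and 3.69 with Flag-Dppa2 (mock minus wild type -2.10, limma adjusted p = 0.129). As for Tex19.1, the mock array of line 1 was the lowest of the 6, and the groups of wild type and mock did not overlap.

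Among the tested members, those with CACGTG in a promoter window had the larger fitted differences between Flag-Dppa2 and mock, which was noticed after the values were seen and was not tested. The 4 with the motif (Ddx4, Mael, Stk31 and Tdrd1) had differences of 2.38 to 4.63, and the 3 without it (Gtsf1, Dazl and Tex14) had 0.27 to 0.84. Those fitted values rest in part on unmeasured levels: Ddx4, Mael and Stk31 were below background on both mock arrays, Tdrd1 on 1 and Dazl on all 4 knockout arrays, and the first 3 passed the filter through the groups where they were high. With mock at the detection floor, the 4 with the motif differed by at least 1.87 to at least 2.89. Piwil2 has no window in the table. Mov10l1, which also holds the motif, and Asz1, which does not, were not tested. Both were below background on all 4 knockout arrays, so no return was measured for either. In the other pathway genes the median was 0.17 for 8 with the motif and 0.20 for 15 without, and over all genes tested the median was 0.00 for both the 1239 with and the 9369 without.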
